A study of Mus musculus with 4 samples.

Results

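The genes described here are 3 type 2 cytokine genes (Il4, Il5 and Il13), 4 genes of cytokine receptor chains (Il4ra, Il13ra1, Il1rl1 and Il17rb) and Gata3, a transcription factor gene. These 8 of the 32285 genes counted were taken by symbol. To follow them in the inflamed colon, single-cell RNA sequencing (scRNA-seq) counts of lamina propria (LP) CD45+ cells were examined in 4 samples, each a droplet library made from mice given dextran sulfate sodium (DSS), a detergent-like polymer that injures the colonic lining and causes colitis. The study concerns the aryl hydrocarbon receptor (AhR) and used AhR-null mice and wild type littermates. However, the labels number the samples 1 to 4 and give all of them as DSS-treated, 10 weeks old and from a section of the colon, with no genotype. No sample was therefore put in a genotype group, each is reported by itself, and no test between groups was made. According to the methods, cells of several mice were mixed into each sample and CD45+ cells were picked with magnetic beads, so the mice of a sample cannot be told apart and there was no colon without DSS for comparison.

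In mucosal tissue, IL-33, which damaged epithelium and stroma release, and IL-25 act as alarmins. The protein made from Il1rl1, ST2, binds IL-33, and the protein of Il17rb is a chain of the IL-25 receptor. Group 2 innate lymphoid cells (ILC2s), which lack antigen receptors, and T helper 2 cells answer these signals with IL-5, which sustains eosinophils, and with IL-13, which acts on epithelium and goblet cells, while IL-4 also comes from mast cells and basophils and drives B cell switching to IgE. IL-4 and IL-13 both signal through the chain encoded by Il4ra. The chain encoded by Il13ra1 joins it in the type II receptor that is typical of myeloid and non-hematopoietic cells. GATA3 is needed for ILC2 and T helper 2 identity and is also present in a part of the regulatory T cells (Tregs) of the gut.

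A total of 39550 of 45229 cells passed the filters, with 7539 to 11824 cells and a median of 5629.5 to 7082 unique molecular identifiers (UMIs, each a counted RNA molecule) per cell in each sample. Of these, 27689 cells fell into 19 classes by the number of marker genes each cell held, and none of the 8 genes was a marker. A further 6863 cells passed the gates of unlike lineages (12.7% to 25.2% of a sample, with median UMIs of 14030 to 16528), and 4998 passed no gate. Ptprc, which encodes CD45, had a UMI in 92.4% to 95.7% of kept cells, and Ahr was at 105 to 126 CPM (counts per 1000000 UMIs, summed over cells) in each sample. The Ahr level was not used to place a sample in a genotype group. Pairs of samples shared 0.271% to 0.423% of the cell barcodes of the smaller sample.

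Il4, Il13 and Il5 lie together on mouse chromosome 11 of GRCm38. Il4 spans chr11:53602982-53618669 and Il13 spans chr11:53631324-53634702, both on the minus strand, and Il5 spans chr11:53720794-53725106 on the plus strand. The other genes are Il4ra at chr7:125552120-125579474 (plus), Il13ra1 at chrX:36112110-36171259 (plus), Il1rl1 at chr1:40429570-40465415 (plus), Il17rb at chr14:29996135-30008896 (minus) and Gata3 at chr2:9857078-9890034 (minus). The 300 bases around a RefSeq start site (GRCm38.p6, 250 bases before it to 50 after) are shown for the 3 cytokine genes, for Il1rl1 as the receptor gene with the most copies of the letters GATA, the core of the sequence that GATA factors bind, and for Il13ra1 as a gene without them. Capitals mark GATA on the printed strand or, as TATC, on the other strand.
Il4, chr11:53618616-53618915, minus strand: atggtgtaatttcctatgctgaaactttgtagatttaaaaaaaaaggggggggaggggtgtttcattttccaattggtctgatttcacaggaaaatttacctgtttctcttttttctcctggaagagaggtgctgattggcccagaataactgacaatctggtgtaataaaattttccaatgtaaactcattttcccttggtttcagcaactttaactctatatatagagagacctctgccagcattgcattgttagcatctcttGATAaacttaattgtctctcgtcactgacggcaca
Il13, chr11:53634653-53634952, minus strand: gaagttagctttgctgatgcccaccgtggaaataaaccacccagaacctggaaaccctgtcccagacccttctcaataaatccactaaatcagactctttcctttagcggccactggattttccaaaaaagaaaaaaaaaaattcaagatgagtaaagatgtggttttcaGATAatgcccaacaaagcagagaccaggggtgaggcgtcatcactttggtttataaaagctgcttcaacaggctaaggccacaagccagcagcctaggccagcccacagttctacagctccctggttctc
Il5, chr11:53720544-53720843, plus strand: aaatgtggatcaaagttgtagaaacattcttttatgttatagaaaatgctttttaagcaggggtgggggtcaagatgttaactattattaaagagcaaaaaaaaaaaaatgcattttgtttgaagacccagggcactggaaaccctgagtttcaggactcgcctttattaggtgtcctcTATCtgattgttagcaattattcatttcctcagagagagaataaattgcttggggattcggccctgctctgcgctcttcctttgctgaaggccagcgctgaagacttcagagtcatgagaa
Il1rl1, chr1:40429320-40429619, plus strand: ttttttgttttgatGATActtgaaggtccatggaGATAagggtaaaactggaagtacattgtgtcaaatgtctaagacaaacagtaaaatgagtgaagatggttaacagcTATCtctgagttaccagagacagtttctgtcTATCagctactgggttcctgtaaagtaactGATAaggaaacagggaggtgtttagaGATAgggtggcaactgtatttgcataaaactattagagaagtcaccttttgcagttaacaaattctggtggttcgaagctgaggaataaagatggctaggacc
Il13ra1, chrX:36111858-36112157, plus strand: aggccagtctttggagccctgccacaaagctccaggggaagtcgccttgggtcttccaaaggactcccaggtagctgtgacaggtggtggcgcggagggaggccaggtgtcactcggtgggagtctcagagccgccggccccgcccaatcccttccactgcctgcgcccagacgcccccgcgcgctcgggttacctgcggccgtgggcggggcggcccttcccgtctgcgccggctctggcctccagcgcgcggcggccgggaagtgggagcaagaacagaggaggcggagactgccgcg

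These windows held 1 match in each of the cytokine genes at the starts shown, 6 in Il1rl1 and 0 in Il13ra1. A second annotated start of Il4, at chr11:53617289-53617588, held 3, and a second start of Il1rl1, at chr1:40439379-40439678, held 2. The windows of Gata3 and Il17rb held 1 each, and that of Il4ra held 0. The 4 letters occur in 57.9% of all 32851 mouse promoter windows of the same length, with a median of 1, so that a match is a description of the sequence and no sign of binding.

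The genes differed widely in abundance. Il4ra had 43453 UMIs in 20020 cells and Il13ra1 had 21506 in 10996 cells. Gata3 had 13896 UMIs in 4424 cells and Il1rl1 had 7761 in 1745. The cytokine genes were sparse, with 1211 UMIs of Il4 in 394 cells, 889 of Il5 in 216 cells and 301 of Il13 in 142 cells, and Il17rb was close to them with 1066 UMIs in 554 cells. The 10 cells with the most UMIs of each held 31.8% of all Il4, 36.1% of all Il5 and 33.2% of all Il13. Values of the cytokine genes therefore rest on few cells, and the intervals given below, which are exact 95% intervals (Poisson for CPM and binomial for shares of cells), cover counting error only.

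**Figure D1:**
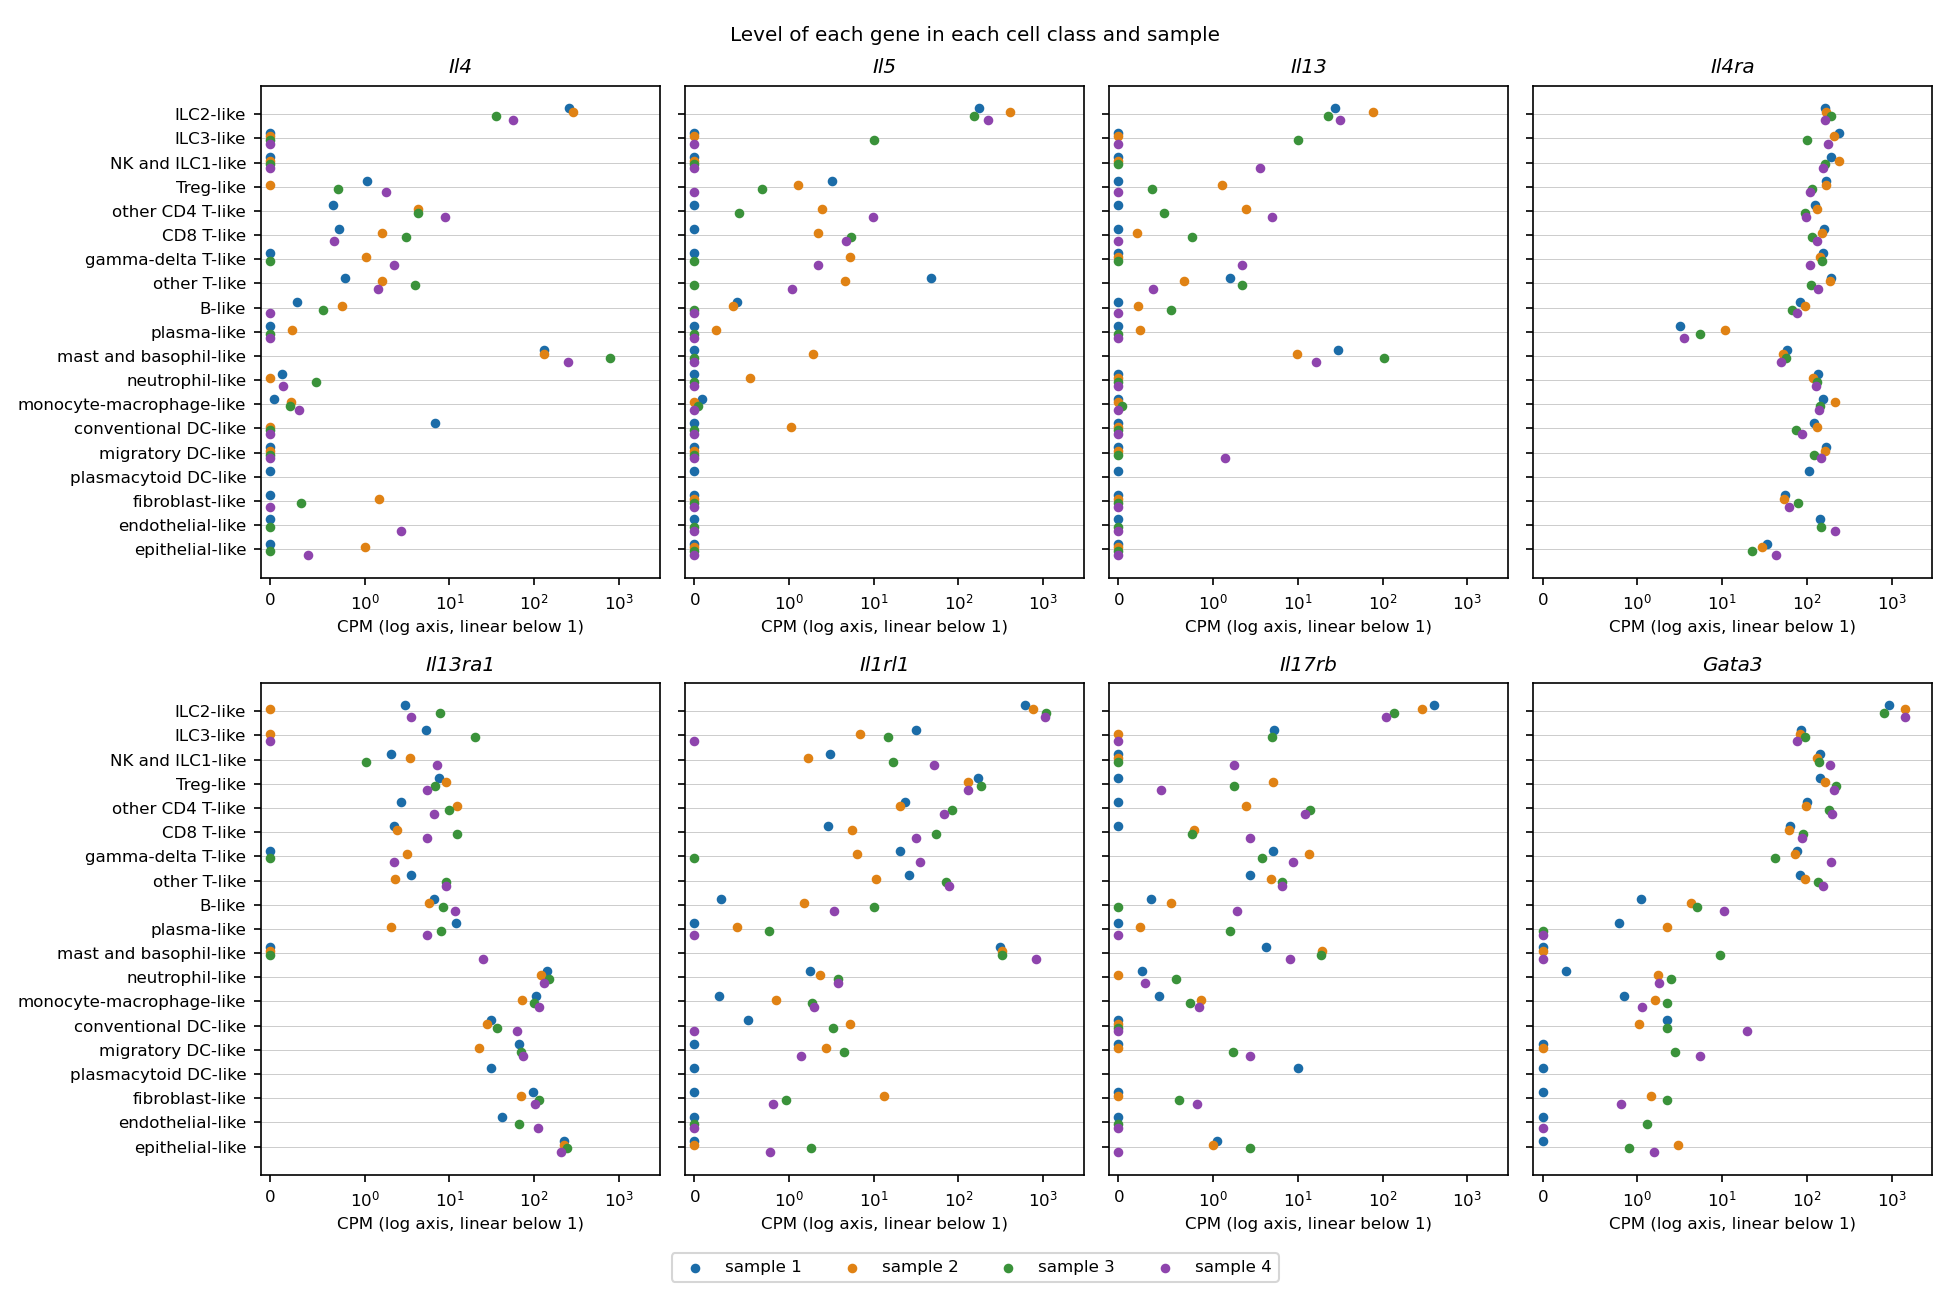
Level of each of the 8 genes (horizontal axis, CPM on a log axis that is linear below 1) in each of the 19 cell classes (rows), with 1 point per sample for classes of at least 20 cells. Il5 and Il17rb reached 100 CPM in ILC2-like cells alone among the classes, and Il4 and Il13 were highest in ILC2-like and in mast and basophil-like cells. Il4ra was present in nearly all classes, and Il13ra1 was highest in epithelial-like and neutrophil-like cells.

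The ILC2-like class was checked first, as the labelled leukocytes hold few of these cells. It had 52, 45, 73 and 109 cells in samples 1 to 4, or 0.519%, 0.381%, 0.718% and 1.45% of kept cells, with median UMIs of 4909 to 5841. The genes that led it were Calca, Pard3, Il1rl1, Gata3, Ctla2a, Rora, Hs3st1, Il2ra, Kcnd2 and Dach2, of which Calca, Rora, Hs3st1, Il2ra and Dach2 were used in the gates and the others were not. Its cells held a median of 5 of 11 ILC2 markers and 2 of 10 T cell markers. Of its 279 cells, 93 sat exactly at the 4 markers required, and 77 cells outside all classes were 1 marker short. A cell past both the T cell gate and the ILC2 gate was classed as T-like.

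Il5 was highest in ILC2-like cells and near 0 in most other classes. The level in ILC2-like cells was 177 CPM (134 to 228) in sample 1, 401 (325 to 489) in sample 2, 153 (117 to 198) in sample 3 and 224 (187 to 266) in sample 4. All 4 values lay above every other class of the same samples, whose medians were at most 3.47 CPM. An Il5 UMI was found in 36.5%, 40%, 13.7% and 29.4% of ILC2-like cells in samples 1 to 4, against at most 0.0814% of monocyte-macrophage-like cells, which should lack the gene and had median UMIs of 6055 to 9011. With every cell thinned to 1000 UMIs, the share of ILC2-like cells was 11.9%, 18.6%, 6.17% and 12.9%.

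A few cells carried much of the Il5 signal. In sample 3, 1 ILC2-like cell held 33 of the 60 UMIs, and without it the level was 70.2 CPM. Without its highest cell, sample 2 fell from 401 to 251 CPM. In sample 1 the cell with the most Il5 in the series had 113 Il5 UMIs, 51.1% of all Il5 in that sample, and was classed as T-like, which raised the other T-like class of sample 1 to 48.2 CPM. Without it that class was at 3.56 CPM. This cell held Trac (1 UMI), Trbc1 (2), Trbc2 (4) and Themis (2), but no UMI of Cd3e, Cd3d, Cd3g, Cd4 or Cd8a. It also held 23 UMIs of Rora, 14 of Calca, 11 of Dach2, 18 of Il1rl1, 6 of Gata3 and 3 of Il17rb, and when cells were clustered it fell with the ILC2-like cells.

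As shares of all Il5 UMIs, ILC2-like cells held 26.2%, 29.8%, 59.4% and 53.8% in samples 1 to 4, while they were at most 1.45% of cells. Cells past the gates of unlike lineages held 10.9%, 52.3%, 17.8% and 32.4%. The 81 such cells with Il5 had a median of 20324 UMIs, and 126 of their 291 Il5 UMIs were in cells past the ILC2 gate and 165 in cells past the T cell gate. With classes taken from clusters instead, the 414 ILC2-like cells held 83.7%, 44.7%, 82.2% and 79.4% of Il5. Mast and basophil-like cells had 0, 1, 0 and 0 Il5 UMIs, where 3 UMIs would be 12.6, 5.87, 28.3 and 24.7 CPM. Against these floors the ILC2-like level was at least 14-fold higher in sample 1, at least 5.43-fold higher in sample 3 and at least 9.07-fold higher in sample 4.

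**Figure D2:**
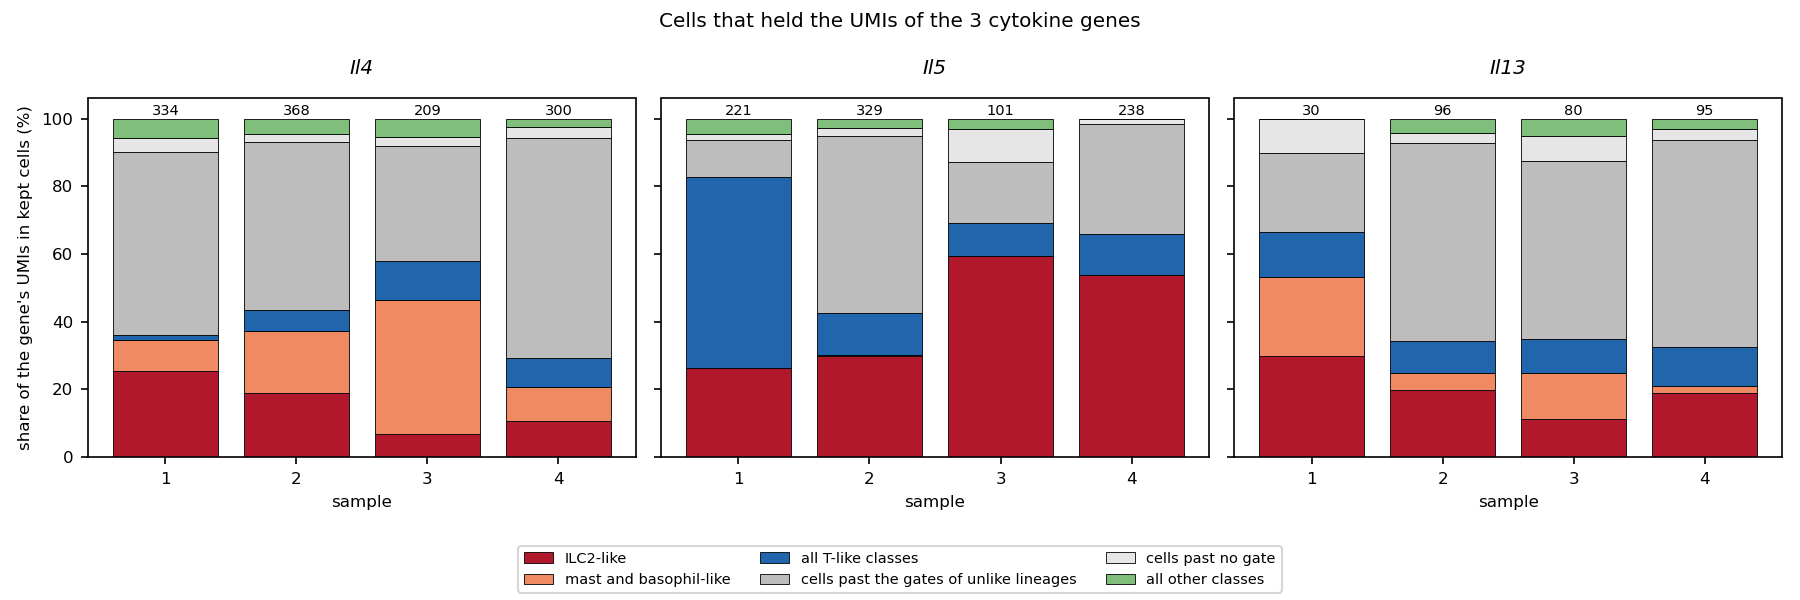
Share of all UMIs of Il4, Il5 and Il13 in kept cells (vertical axis, percent) that lay in each group of cells, as stacked bars for samples 1 to 4, with the number of UMIs above each bar. The ILC2-like part was the largest for Il5 in samples 3 and 4, the T-like part of sample 1 was mostly a single cell with 113 UMIs, and cells past the gates of unlike lineages held 53.9%, 49.7%, 34% and 65% of Il4.

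Il4 was found at high levels in 2 classes. In mast and basophil-like cells, which store and release granule proteases and histamine, it was at 130 CPM (88.6 to 185), 131 (102 to 166), 782 (623 to 970) and 247 (167 to 352) in samples 1 to 4. In ILC2-like cells it was at 259 CPM (207 to 320), 286 (223 to 362), 35.8 (19.6 to 60.1) and 56 (38.3 to 79). The ratio of ILC2-like to mast and basophil-like cells was 1.98 (1.3 to 3.1) in sample 1 and 2.19 (1.54 to 3.1) in sample 2, but 0.0458 (0.024 to 0.0812) in sample 3 and 0.227 (0.133 to 0.386) in sample 4. Hence the order of the 2 classes was not the same in all samples, and over the samples their ranges overlapped, while both lay above all other classes. The share of cells with Il4 varied less in mast and basophil-like cells, at 45.2%, 42.2%, 42.9% and 50%, than the level did. In ILC2-like cells it was 46.2%, 44.4%, 15.1% and 18.3%, against 0.0407% to 0.204% in monocyte-macrophage-like cells.

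The make-up of the mast and basophil-like class also differed between samples. It held only 31, 64, 21 and 20 cells. Mcpt1, Mcpt2, Car8, Cpa3 and Mcpt4 led it, and the first 2 encode proteases of mucosal mast cells. The 7 markers listed for mast cells alone summed to 28600, 49500, 3240 and 27400 CPM, and the 5 listed for basophils alone to 1980, 1940, 2300 and 7500 CPM. Of these, Tpsab1 had 0 UMIs in samples 1 and 3 and Prss34 had 0 in sample 1. Sample 3, with the highest Il4 of the class, thus had the lowest sum of mast cell markers. Its 9 cells with a UMI of Mcpt8, a basophil protease gene, had Il4 at 1630 CPM (1270 to 2050) and its 12 cells without at 178 (88.8 to 318), and 1 cell held 36 of its 83 Il4 UMIs. Without that cell the class of sample 3 was at 470 CPM. Of the markers on the basophil list alone, Mcpt8 and Fcer1a were lower in sample 3 than in any other sample, at 330 and 18.9 CPM. Cd200r3 was the highest there, at 829 CPM. Fcer1a was highest in sample 2, at 403 CPM, where the sum of mast cell markers was also highest, so its low value in sample 3 is not read as few basophils. In sample 1 the cells with Mcpt8 had 157 CPM of Il4 and those without 69.6. The values were 127 and 138 CPM in sample 2 and 225 and 262 CPM in sample 4, so that the difference was not seen in every sample. The part of this make-up in the Il4 values was not tested.

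T-like cells held little Il4. Other CD4 T-like cells were those that did not pass the Treg gate of 1 Foxp3 UMI and 2 of 4 Treg markers. They had 0.668, 4.3, 4.3 and 8.78 CPM from 1, 7, 9 and 16 UMIs, and in sample 2 all 7 UMIs were in a single cell. Treg-like cells had 0 to 1.8 CPM. ILC3-like, NK and ILC1-like and migratory DC-like cells had no Il4 UMI in any sample. The 12 UMIs in conventional DC-like cells of sample 1 came from 1 cell.

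A large part of the Il4 RNA lay outside the classes. Of the 629 Il4 UMIs in cells past the gates of unlike lineages, 338 were in 38 cells past the mast or basophil gate, 275 in 94 cells past the T cell gate and 120 in 40 cells past the ILC2 gate, with overlap between these. The 155 cells had a median of 18771 UMIs, against 4909 to 5841 in ILC2-like cells. A single such cell in sample 4 had 112 UMIs, 37.3% of the Il4 in that sample. Whether such cells were pairs of cells was not tested. By clusters, 217 mast and basophil-like cells held 41.3%, 32.9%, 63.6% and 15.7% of Il4, against 9.28%, 18.2%, 39.7% and 10% by the gates.

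Il13 was the least abundant of the 3 and followed both patterns in part. In ILC2-like cells it was at 27.4 CPM (12.5 to 52), 77.7 (46.8 to 121), 23 (10.5 to 43.7) and 31.5 (18.7 to 49.8), from 9, 19, 9 and 18 UMIs. In mast and basophil-like cells it was at 29.5 CPM (11.8 to 60.7), 9.78 (3.18 to 22.8), 104 (51.8 to 186) and 16.5 (1.99 to 59.5), from 7, 5, 11 and 2 UMIs. The ILC2-like level was the higher in sample 2, by 7.95-fold (2.87 to 27.2), and the lower in sample 3, at 0.222-fold (0.0813 to 0.589). In samples 1 and 4 the intervals of the ratio, 0.308 to 2.94 and 0.458 to 17, held no change. Other CD4 T-like cells had 0 to 4.94 CPM, below both classes in every sample. In sample 4, however, their 4.94 CPM lay within the mast and basophil-like interval of 1.99 to 59.5. Cells past the gates of unlike lineages held 23.3%, 58.3%, 52.5% and 61.1% of Il13, and ILC2-like cells 30%, 19.8%, 11.2% and 18.9%, or 56.7%, 38.5%, 28.8% and 30.5% by clusters.

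**Figure D3:**
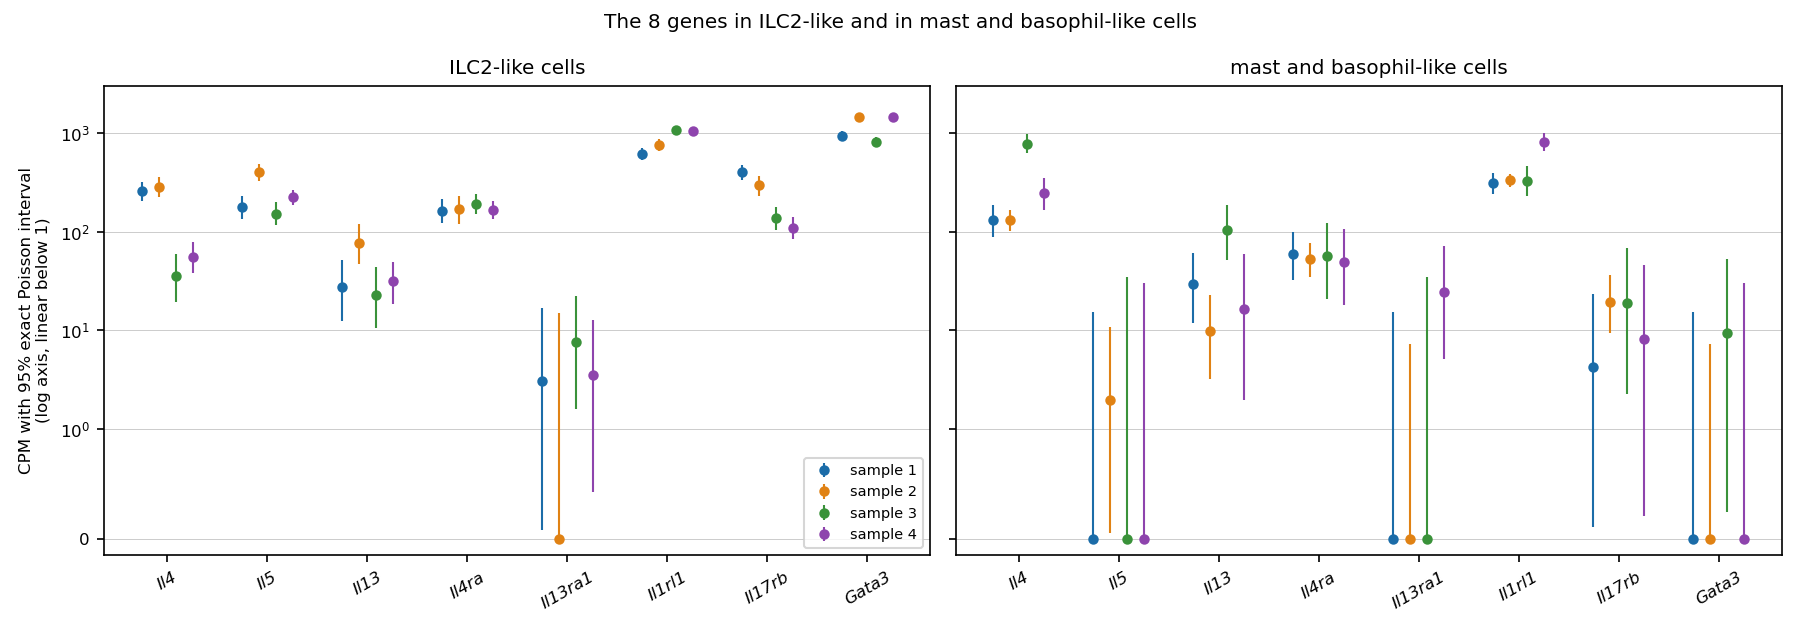
Levels of the 8 genes in ILC2-like cells (left) and in mast and basophil-like cells (right), in CPM on a log axis that is linear below 1, with 1 point per sample and bars for the exact 95% Poisson interval. Il5 and Gata3 were high in ILC2-like cells and had 1 UMI each in all mast and basophil-like cells, Il17rb was at 110 to 399 CPM in the former and 4.21 to 19.6 CPM in the latter, and Il4, Il13 and Il1rl1 were called in both.

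Next, the 2 alarmin receptor genes were compared. Il1rl1 was at 612, 761, 1070 and 1040 CPM in ILC2-like cells of samples 1 to 4, with a UMI in 86.5%, 71.1%, 82.2% and 89% of cells. Mast and basophil-like cells followed at 311, 331, 330 and 815 CPM, with a UMI in 70% to 75% of cells. The ILC2-like level was higher in each sample, by 1.97-fold (1.5 to 2.6), 2.3-fold (1.86 to 2.85), 3.23-fold (2.29 to 4.71) and 1.28-fold (1.03 to 1.59). Treg-like cells came next at 171, 129, 187 and 131 CPM, with ranges over samples that overlapped neither mast and basophil-like cells nor the next class. Monocyte-macrophage-like cells had 0.259 to 2.01 CPM and a UMI in at most 1.32% of cells.

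Il17rb was narrower. In ILC2-like cells it was at 399 CPM (333 to 473), 295 (230 to 371), 138 (104 to 180) and 110 (84.7 to 141), with a UMI in 75%, 62.2%, 39.7% and 36.7% of cells. Samples 1 and 2 lay above samples 3 and 4 with no overlap of the counting intervals, whereas for Il1rl1 in the same cells samples 3 and 4 were the higher. Mast and basophil-like cells had 1, 10, 2 and 1 UMIs of Il17rb, at 4.21, 19.6, 18.9 and 8.23 CPM, and in sample 2 the ILC2-like level was 15.1-fold higher (7.73 to 32.7). Other CD4 T-like cells had 0, 2.46, 13.8 and 12.1 CPM, and 1 cell held 18 of the 29 UMIs in sample 3. Treg-like cells had 0 to 5.16 CPM.

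The receptor chains of IL-4 and IL-13 had different patterns from each other. Il4ra was at 164, 168, 192 and 166 CPM in ILC2-like cells and at 157, 216, 145 and 140 CPM in monocyte-macrophage-like cells. By median the highest classes were ILC3-like (194 CPM, range 100 to 240), NK and ILC1-like (180, 158 to 243) and ILC2-like (167, 164 to 192). These overlapped, as did all neighbours down to mast and basophil-like cells at 58.9, 52.8, 56.6 and 49.4 CPM. Epithelial-like cells were lower, at 23 to 43.1 CPM, and plasma-like cells lower again, at 3.22 to 10.8 CPM, with no overlap at either step. The class medians thus ran from 4.58 to 194 CPM.

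Mast and basophil-like cells apart, Il13ra1 separated myeloid and non-hematopoietic cells from lymphocytes. It was highest in epithelial-like cells, at 224, 227, 246 and 205 CPM, then in neutrophil-like cells at 141, 121, 150 and 131 CPM, with no overlap between these 2 or with the next class. Monocyte-macrophage-like cells had 105, 71.2, 100 and 113 CPM and fibroblast-like cells 69.4 to 115 CPM. A UMI was found in 70.4% to 92.3% of epithelial-like and 32.5% to 54.5% of monocyte-macrophage-like cells. T-like, B-like and innate lymphoid classes had medians of at most 8.31 CPM. ILC2-like cells had 1, 0, 3 and 2 UMIs and mast and basophil-like cells 0, 0, 0 and 3.

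Hence, the ILC2-like and the mast and basophil-like cells, which were richest in Il4 and Il13, were low in Il13ra1. Il4ra was at 164 to 192 CPM in ILC2-like cells, which were also the richest in Il5. In mast and basophil-like cells, with 1 Il5 UMI over all samples, it was lower, at 49.4 to 58.9 CPM. By CPM, epithelial-like cells were the highest of all classes in Il13ra1 and below all but plasma-like cells in Il4ra. They were also deep, with median UMIs of 17598 to 41091 in the samples. An Il4ra UMI was found in 34.5% to 73.1% of epithelial-like cells, against 46.2% to 53.3% of ILC2-like cells, so their low CPM does not mean that few cells had Il4ra. The levels were set side by side across classes, gene by gene, since capture of RNA can differ between genes.

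**Figure D4:**
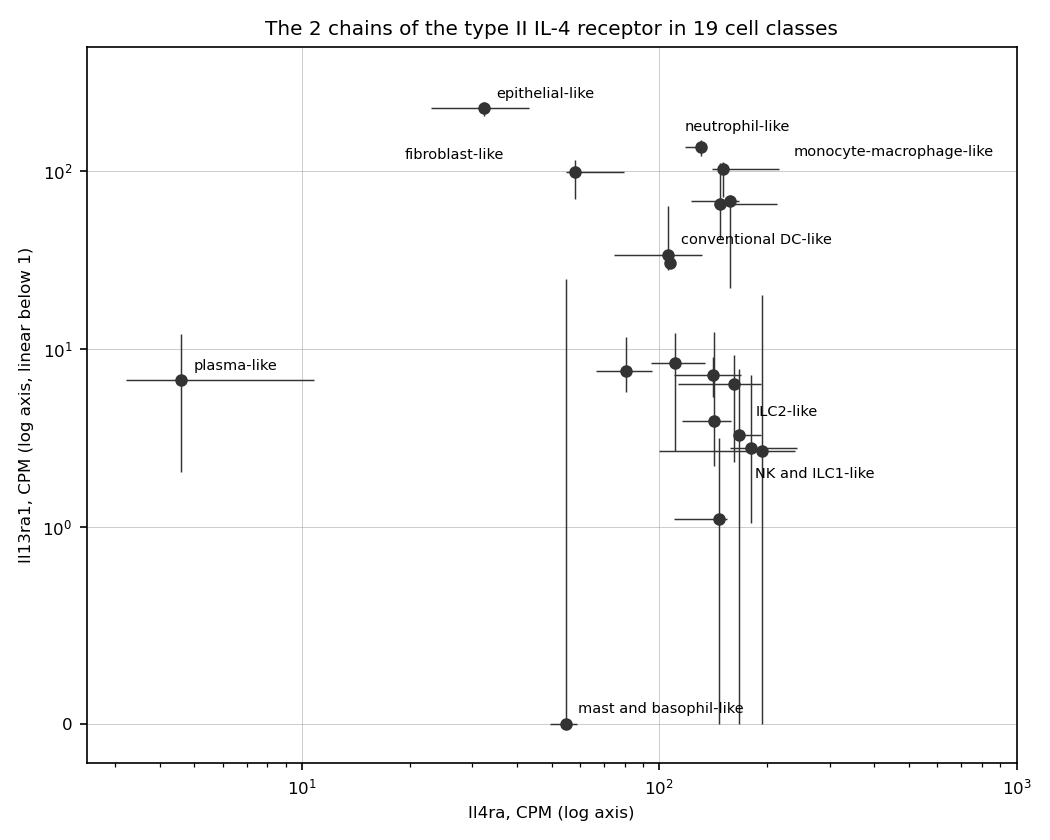
Il4ra (horizontal axis, CPM, log axis) against Il13ra1 (vertical axis, CPM, log axis that is linear below 1), with 1 point per class at the median over samples and bars from the lowest to the highest sample. T-like, B-like and innate lymphoid classes sit at 80.6 to 194 CPM of Il4ra and at most 8.31 CPM of Il13ra1, and neutrophil-like and monocyte-macrophage-like cells have both above 100 CPM.

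Gata3 was at 944 CPM (841 to 1050), 1440 (1290 to 1590), 818 (731 to 913) and 1450 (1350 to 1550) in ILC2-like cells, with a UMI in 83.6% to 93.3% of cells. This class stood alone: the next by median were Treg-like cells at 144, 163, 219 and 208 CPM, then NK and ILC1-like cells at 133 to 190 CPM and other CD4 T-like cells at 101, 98.9, 182 and 198 CPM, whose ranges overlapped. ILC3-like cells had 77.2 to 95.1 CPM and CD8 T-like cells 62.3 to 90 CPM. Mast and basophil-like cells had a single Gata3 UMI over 136 cells, although they carried Il4, Il13 and Il1rl1. In sample 2, with 64 of these cells and no Gata3 UMI, 3 UMIs would be 5.87 CPM. Monocyte-macrophage-like cells had 0.865 to 2.27 CPM, with a UMI in 0.611% to 1.28% of cells.

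To place the 8 genes among all genes, each class was compared with other cells of the same sample, and a gene was called where its CPM was higher by a set fold in every sample. ILC2-like cells against all other classed cells, at 4-fold or more, called 1.14% of the 16402 genes with at least 100 UMIs. All 8 genes were among those tested and 6 of them were called (Il4, Il5, Il13, Il1rl1, Il17rb and Gata3), with a median fold of 73.6 over the 8 against 0.654 over all genes tested. For Il5 the folds were 82.3, 369, 636 and 290 in samples 1 to 4. For Il17rb they were 738 (503 to 1110), 187 (133 to 262), 83.6 (58.5 to 118) and 56.7 (39.8 to 80.6), and for Gata3 they were 73.1, 53.4, 26.1 and 32.7. Il4ra was at 1.28 to 1.56-fold. Il13ra1 was lower in ILC2-like cells, which had 1, 0, 3 and 2 UMIs, with upper bounds of the fold of 0.26, 0.537, 0.26 and 0.147.

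Mast and basophil-like cells, compared in the same way, called 0.866% of genes and 3 of the 8 (Il4, Il13 and Il1rl1), with a median fold of 2.48 over the 8 against 0.518. Il4 was higher by 75.4, 56.1, 864 and 144-fold and Il1rl1 by 38.6, 34.1, 12 and 22.5-fold. The Il13 call in sample 4 rested on 2 UMIs, with a fold of 19.6 (2.27 to 76.7). Il4ra was below the other cells in each sample, at 0.4 to 0.46-fold with all upper bounds under 1.

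Monocyte-macrophage-like cells against all T-like, innate lymphoid and B-like cells, at 2-fold or more, called 11.0% of genes. Of the 8, only Il13ra1 was called, by 18.8-fold (15.9 to 22.4), 14.7-fold (12.2 to 17.8), 12.1-fold (9.9 to 14.9) and 15.4-fold (12.4 to 19.4). Il4ra was also higher in each sample, by 1.42, 1.66, 1.31 and 1.19-fold, which was under the set fold. The median fold over the 8 genes was 0.0395 against 0.668 over all genes tested.

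Treg-like cells were compared with other CD4 T-like cells, again at 2-fold or more, to ask how ST2 and GATA3 were spread among CD4 T cells. There were 86, 95, 206 and 171 Treg-like cells and 181, 266, 209 and 214 other CD4 T-like cells. This comparison called 0.768% of genes and 0 of the 8, with a median fold of 0.645 over the 8 against 0.884. Il1rl1 came closest: it was 7.31-fold (5.04 to 10.9), 6.36-fold (4.26 to 9.74), 2.23-fold (1.88 to 2.66) and 1.95-fold (1.57 to 2.43) higher in Treg-like cells. All 4 intervals lay above 1, and sample 4 was just under the set fold. The other CD4 T-like cells had 23.4 and 20.3 CPM in samples 1 and 2 and 83.6 and 67 CPM in samples 3 and 4, whereas the Treg-like values did not fall in that order. Gata3 was 1.42, 1.64, 1.2 and 1.05-fold higher, with an interval that held 1 in sample 4 (0.915 to 1.21), and Il4ra was 1.36, 1.25, 1.22 and 1.13-fold higher, with intervals that held 1 in samples 2 (0.996 to 1.56) and 4 (0.925 to 1.37). Median UMIs were 6577 to 9820 in Treg-like and 4769.5 to 7503 in other CD4 T-like cells. The latter held a median of 2 of the 4 Treg markers, so Tregs in which no Foxp3 UMI was captured may be among them. Their part in these folds was not tested.

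**Figure D5:**
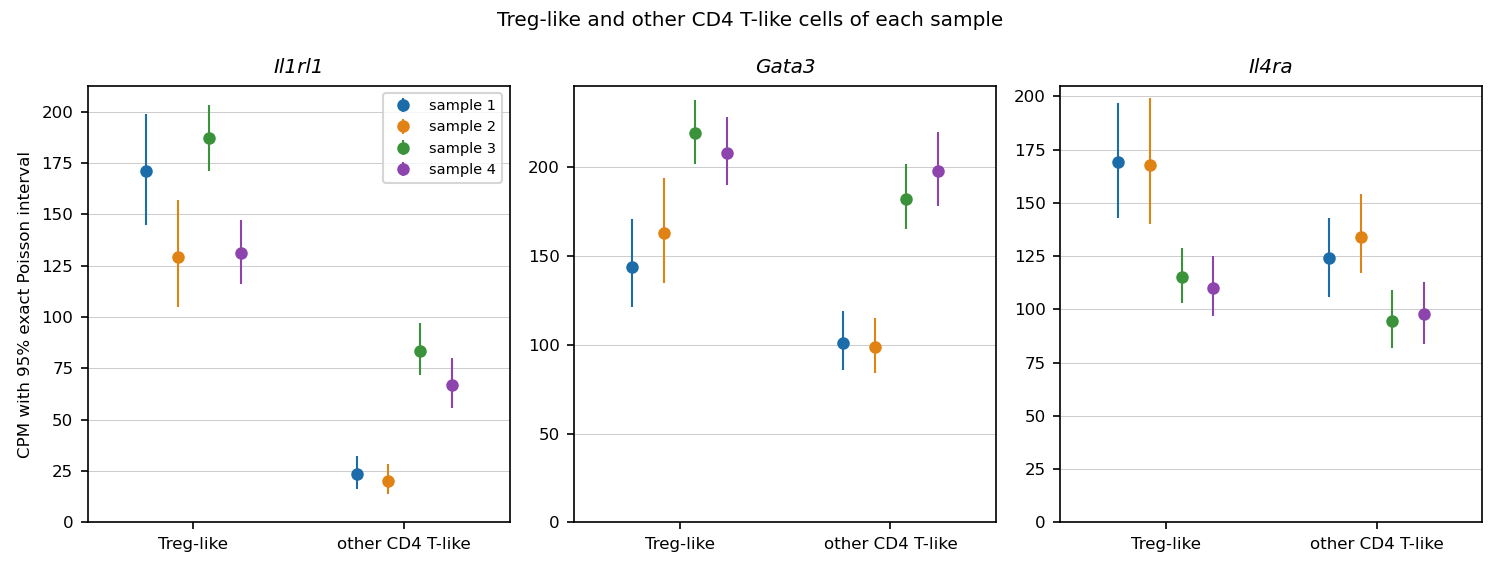
Levels of Il1rl1, Gata3 and Il4ra (vertical axes, CPM from 0) in Treg-like and other CD4 T-like cells, with 1 point per sample and bars for the exact 95% Poisson interval. Il1rl1 was higher in Treg-like cells in each sample, at 129 to 187 CPM against 20.3 to 83.6 CPM, while for Gata3 the intervals of sample 4 overlapped.

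Within cells, RNAs of these genes were found together to different extents. Shares given without a sample number pool the cells of all samples, and their intervals leave out differences between samples. Among the 172 Treg-like cells with an Il1rl1 UMI, 82% (75.4 to 87.4) also had Gata3, against 53.6% (48.5 to 58.7) of the 386 without, at median UMIs of 8969.5 and 8696. In samples 1 and 2 the cells with Il1rl1 were the shallower, with 6652 against 9475 and 5657.5 against 6918 UMIs. The share with Gata3 was higher in each sample, at 74.2% against 54.5%, 61.1% against 41.6%, 91.8% against 57.1% and 80% against 57%. Areg, which encodes the tissue repair factor amphiregulin, was found in 51.7% and 30.6% of the same cells. Its share was also the higher in each sample, but in sample 4 only at 44% (30 to 58.7) against 38.8% (30.1 to 48.1). Of the 72 other CD4 T-like cells with Il1rl1, 73.6% had Gata3, against 37.6% of those without, but the former were also deeper, at 9185 against 6124 UMIs.

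In ILC2-like cells, 34 cells had an Il13 UMI over all samples. Intervals of shares pooled over samples again leave out differences between samples. Il5 was found in 19 of these (55.9%, 37.9 to 72.8) and in 24.5% (19.2 to 30.4) of the 245 without Il13, and Gata3 was found in all 34. The share with Il5 was the higher in each sample, and the intervals overlapped within samples 1, 2 and 3. Over all samples the cells with Il13 were deeper, with a median of 6591.5 against 5132 UMIs, but in sample 3 they were shallower, with 3812 against 4949 UMIs. Over all samples Il17rb was found in 73.5% of the cells with Il13 and 45.3% of those without, but in sample 4 the shares were 33.3% and 37%. Il4 was found in 41.2% and 24.9%, but in sample 2 in 36.4% and 47.1%. In mast and basophil-like cells, 13 of 16 cells with Il13 had Il4 (81.2%, 54.4 to 96), against 39.2% of the rest, and none had Il5. The cells with Il13 were again deeper over all samples, at 6597.5 against 5321 UMIs, and shallower in sample 3, at 3031.5 against 3364 UMIs. The part of depth in these shares was not tested.

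The 45 other genes of the pathway were then taken from 7 lists, and 41 had enough UMIs to be compared. Of these 41, the numbers called were 3 in ILC2-like, 2 in mast and basophil-like, 0 in Treg-like and 11 in monocyte-macrophage-like cells. Of all 16402 genes tested they were 187, 142, 126 and 1801 in the same order, or 1.14%, 0.866%, 0.768% and 11.0%. The median folds over the listed genes were 0.489, 0.247, 0.787 and 0.773, against 0.654, 0.518, 0.884 and 0.668 over all genes tested. The ligands of the alarmin receptors were scarce in these CD45-selected samples. Il25 had no UMI in any class. Il33 was at 125, 260, 17.1 and 173 CPM in fibroblast-like cells, 0 to 21.1 CPM in epithelial-like cells and 0 in ILC2-like cells. Tslp, a further alarmin gene, was at 9.56 to 17.7 CPM in fibroblast-like cells.

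Of the other cytokine genes made by type 2 cells, Csf2, which encodes the growth factor GM-CSF, was called in ILC2-like cells, at 271, 278, 138 and 133 CPM, and had no UMI in mast and basophil-like cells. Areg was at 572, 851, 246 and 345 CPM in ILC2-like cells and at 587 to 981 CPM in epithelial-like cells, and in Treg-like cells it was at 179, 401, 141 and 203 CPM. Il9 was found in ILC2-like cells of sample 4 alone, at 8.75 CPM. Ifng, a type 1 cytokine gene for contrast, was at most 3.5 CPM in ILC2-like cells and at 317 to 1630 CPM in NK and ILC1-like cells. Il17a, a type 17 cytokine gene, was at 101 to 546 CPM in ILC3-like cells. In ILC2-like cells it was at 12.2, 119, 0 and 1.75 CPM, and all 29 UMIs of sample 2 were in 1 cell.

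Among receptor partners and signalling genes, Csf2rb, the shared beta chain of the IL-3, IL-5 and GM-CSF receptors, was called in mast and basophil-like cells at 1030, 716, 914 and 1070 CPM, together with its paralog Csf2rb2. Reads of these near-identical genes can be split between them, so each level is uncertain. Il1rap, the partner chain of ST2, was low in ILC2-like cells at 16.4 to 38.5 CPM and highest in neutrophil-like cells at 795 to 1230 CPM. Cish, a feedback inhibitor of STAT5 signalling, was called in ILC2-like cells at 250, 229, 200 and 182 CPM. Irs2, an adaptor downstream of the IL-4 receptor, was at 578 to 790 CPM there and was not called. Of the transcription factor genes, Pparg was called in ILC2-like cells at 131, 233, 263 and 485 CPM, and Maf was at 894 to 1150 CPM in Treg-like cells against 116 to 156 in ILC2-like cells.

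Of the 11 genes that IL-4 and IL-13 are known to induce, 8 were called in monocyte-macrophage-like cells against lymphoid cells, where 11.0% of all genes tested were called (Arg1, Ccl11, Ccl24, Chil3, Clec10a, Egr2, Mgl2 and Mrc1). Many of these genes are myeloid genes in any state. Chil3 was at 889, 644, 3470 and 4100 CPM, Arg1 at 45.1, 32.4, 290 and 301 CPM and Mrc1 at 96.6, 439, 352 and 653 CPM. Retnla was at 0 to 2.61 CPM. Ccl11 was at most 1.77 CPM in these cells despite its call, and was at 385 to 968 CPM in fibroblast-like cells, and Ccl22 was at 552 to 1090 CPM in migratory DC-like cells. Arg1 was also found in ILC2-like cells, at 216, 503, 189 and 238 CPM.

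Lastly, the genes whose levels were most like those of each gene were sought over 72 points, each a class in a sample, by Pearson's r of log2(CPM + 1) among 11515 genes. The points share libraries and classes, so r is a description only. The 8 genes and the gate markers were left out of the ranking, and values between the 8 genes are given apart from it. Among the ranked genes, Il4 was most like Gm973 (r = 0.859), Slc18a2 (0.812), a transporter of histamine and other amines, and Fbxl21 (0.747). Il5 was most like Nyap2 (0.84), Gm13219 (0.823) and Kcnd2 (0.789). Il13 was most like Gm973 (0.785), 4932438H23Rik (0.749) and Slc18a2 (0.728), and Il17rb was most like Kcnd2 (0.76). Between the 8 genes, Il4 and Il13 had r = 0.893, Il13 and Il17rb 0.791, Il5 and Il17rb 0.771, Il13 and Il1rl1 0.757 and Il4 and Il5 0.54, and several of these were above the values of the ranked genes. Il1rl1 was most like Ccr8 (0.769), a chemokine receptor gene. Gata3 was most like Icos (0.926), Camk4 (0.916) and Zap70 (0.916), genes of T cells and innate lymphoid cells. Il4ra was most like Tpm3 (0.833), and Il13ra1, which had negative values with all 7 other genes, was most like Ampd3 (0.827).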

How the data were processed

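The deposited files hold whole-number UMI counts per gene and cell for 4 samples. According to the submitters' processing notes, the authors used Cell Ranger 5.0.0, STAR and Seurat with the mm10 genome, whereas the matrix headers name Cell Ranger 7.0.1. The counts were used as deposited, with no rows left out. The samples had 72509408 to 135516016 UMIs.

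Cells with at least 200 genes and under 20% mitochondrial UMIs were kept, and possible doublets were taken out by Scrublet score, with the number set at 0.8% for each 1000 cells of a sample. Marker lists fixed with the design defined the classes. The number of markers each gate needs (4 of 11 for ILC2, for example) was set after the marker distributions had been seen and without the values of the 8 genes. The eosinophil gate held too few cells to form a class, and mast cells and basophils were merged. Cells past the gates of unlike lineages were left out of the classes, and classes under 20 cells in a sample were not read. A cluster or class name rests on these markers only.

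CPM is the gene's UMIs per 1000000 UMIs of the class, summed within a sample. Intervals are exact at 95%, Poisson for CPM, binomial for shares and conditional binomial for folds, and cover counting error only. With a count of 0, a floor of 3 UMIs was used. No p-value is given, because each sample stands alone and its cells share a library. Scripts were tested on simulated data. Genes with at least 100 UMIs were compared. Named genes are the 8 genes, 45 genes in 7 lists and, for likeness, the 3 genes with the highest correlation to each, taken from genes that reached 10 CPM in some class of each of the 4 samples, markers left out. The 8 genes, the lists and the marker lists were chosen with earlier results of these data known. Gene positions are those of GENCODE M21 (GRCm38), and promoters are from RefSeq.

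Alternatives were other filters on cells and genes, no doublet removal, a gate with 1 more marker, cells of unlike lineages assigned to their best class, classes from Leiden clusters (resolution 2 on 30 components of 2000 variable genes, made without the 8 genes and the listed genes), classes of at least 50 cells, means over cells and thinning to 1000 UMIs. Python 3.11.15 with scanpy 1.11.5, numpy 2.4.6, scipy 1.17.1 and pandas 2.3.3 was used.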

Additional observations from a re-analysis of the deposited data

How the results depend on the processing

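Of 114 values of 12 results under the alternatives, 104 stayed within the limits set and 10 moved. For shares and levels the limit was the standard deviation over the samples, such as 16.7 for the Il5 share in ILC2-like cells. That share, 41.8% at the main settings, thus counted as staying at 27.5% with 1 more marker required. A fall from 6 to 4 genes called in ILC2-like cells, with at least 1000 UMIs required per gene, also counted as staying. With classes from Leiden clusters, the median share of UMIs in ILC2-like cells rose from 19.4% to 34.5% for Il13 and from 41.8% to 80.8% for Il5, the median share of Il4 in mast and basophil-like cells rose from 14.1% to 37.1%, and Il1rl1 in Treg-like cells was at 101 CPM in place of 151. The ILC2-like cluster held 414 cells, of which 268 had passed the gate. With 1 more marker required, the Il4 share was 29.4%, with 2 samples left to read, and the share of Il13-positive ILC2-like cells with Il5 was 70.8% in place of 52.3%. Thinned to 1000 UMIs that share was 27%. With cells of unlike lineages assigned, and with means over cells, 1 gene (Il1rl1) in place of 0 was called in Treg-like cells, and means over cells put Il1rl1 there at 234 CPM. An alternative chosen after seeing the data left out the cell with the most Il5, and the Il5 share was then 53.7%. The cause of these moves was not tested.

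No paired analysis was possible because the labels put no sample in a group. Leaving out replicates was not run for the same reason, and levels and folds are given per sample, while some counts of cells and shares are summed over samples. Depth limits Il13 most, with 30 to 96 UMIs per sample, and absence of a cytokine UMI in a class of 20 to 100 cells does not show that the gene was off.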
